A study of Caenorhabditis elegans with 15 samples.

Results

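The vitellogenin genes of C. elegans, vit-1 to vit-6, encode the precursors of yolk, and they were taken by name from the deposited table, in which 6 of 46906 genes carry one of these names. The worms were wild-type N2 of genotype WT, fed E. coli OP50 and exposed on plates from the L4 larval stage to day 12 of adulthood. One group received an extract of Cuscuta chinensis at 30 µg/mL, one an extract of Eucommia ulmoides at 30 µg/mL, and the control group the solvent DMSO at 0.05%, with 5 libraries in each of the 3 groups. All groups shared carbenicillin at 2 mg/mL, a temperature of 22 °C and 100 µM FUdR, an inhibitor of DNA synthesis that keeps the worms from producing offspring. Each tube pooled about 3000 to 4000 whole worms. A bulk library of whole worms cannot tell a larger share of RNA from the yolk-making tissue from more yolk gene RNA within that tissue. The fragments behind a library ranged from 37920765 to 87238546. The intestine, which makes yolk, was represented in every library: of 15 intestine markers, 0 were at 0 throughout, and their summed FPKM (fragments of a gene per kilobase of its length, relative to the depth of the library) lay between 291 and 333 in the DMSO libraries.

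Yolk is a lipoprotein that carries lipid and protein from the mother to her eggs. In adult hermaphrodites the vit genes are transcribed in the intestine, the products are loaded with lipid and secreted into the body cavity, and growing oocytes take them up through the receptor RME-2. The genes vit-1 and vit-2 encode the B form of the large yolk protein, vit-3, vit-4 and vit-5 encode its A form, and the product of vit-6 is cut into a pair of smaller yolk proteins. Worms keep making yolk after reproduction has ended, and it then collects in the body cavity of old animals.

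In the WBcel235 annotation all 6 genes are protein coding. On chromosome X, vit-2 lies at chrX:5101042-5106169 and vit-1 at chrX:7727889-7733168, both on the plus strand and both with 5 exons. The A-form genes lie closer together on the same chromosome, with vit-5 at chrX:3403471-3408603 on the plus strand, vit-4 at chrX:3558769-3563965 and vit-3 at chrX:3567355-3572549 on the minus strand, each with 6 exons. Only 3389 bases separate vit-4 from vit-3. The exon structure follows the protein forms. Exon 2 was 285 bases long in all 5 genes on chromosome X, and exons 3, 4 and 5 were 3038, 229 and 136 bases long in each of vit-3, vit-4 and vit-5. In vit-1 and vit-2, exon 4 was 247 bases long. The gene vit-6 stands alone at chrIV:8261157-8266459 on the plus strand, with 5 exons, of which exon 3 is the longest at 3948 bases.

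These likenesses bear on the counts. Genes of one form have closely related sequences, how fragments that fit several of them were counted is not given in the sources used here, and so the values of vit-1, vit-3 and vit-4, which are far below those of a relative, are uncertain. The deposited FPKM were whole fragments at a length of 5088 bases for vit-1, 4852 for vit-2, 4924 for vit-3, 4875 for vit-4 and 4870 for vit-5, all within the annotated exon total of the gene. For vit-6 the length was 3627 bases against 5064 bases of annotated exons. With the annotated length each vit-6 FPKM would be 0.716 times as high, which affects its level against the other genes but no comparison between libraries.

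In control worms a steep order of levels was measured. The FPKM of vit-2, a B-form gene, was 225, 468, 468, 368 and 223 in DMSO replicates 1 to 5. The FPKM of vit-6 was 71.7, 162, 160.4, 130 and 74.0 in the same order, and that of vit-5, the leading A-form gene, was 26.1, 61.2, 52.2, 57.0 and 30.8. The ranges of these 3 genes did not overlap each other. The gap between vit-6 and vit-5 depends on the length behind vit-6, and with its annotated length these ranges would overlap. Next came vit-1, with 0.917, 1.90, 1.47, 1.78 and 0.968. The lowest levels were those of vit-3, with 0.0753, 0.265, 0.188, 0.262 and 0.0634, and vit-4, with 0.0403, 0.302, 0.141, 0.206 and 0.0534, and these overlapped. Among all 46906 genes ordered by FPKM, vit-2 ranked between 185 and 497 in the DMSO libraries, vit-6 between 747 and 2223 and vit-5 between 2652 and 5080, while vit-3 and vit-4 ranked no higher than 16106. In fragments, vit-2 had at least 50078 in a DMSO library and vit-4 as few as 9.

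The yolk genes were higher after treatment with C. chinensis. In C. chinensis replicates 1 to 5 the FPKM of vit-2 was 1418, 1122, 1150, 1023 and 1608, that of vit-1 was 6.11, 4.21, 4.15, 3.398 and 5.61, and that of vit-6 was 610, 522, 427, 460 and 766. For each of these genes the lowest C. chinensis library lay above the highest DMSO library. The A-form genes showed the same separation, with vit-5 at 424, 186, 231, 141 and 305, vit-3 at 1.74, 0.789, 0.481, 0.405 and 1.68, and vit-4 at 1.38, 0.665, 0.638, 0.429 and 1.18. All 6 vit genes were therefore without overlap between C. chinensis and DMSO, where 16.5% of the 26686 genes above 0 in any library had every C. chinensis value above every DMSO value.

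**Figure D1:**
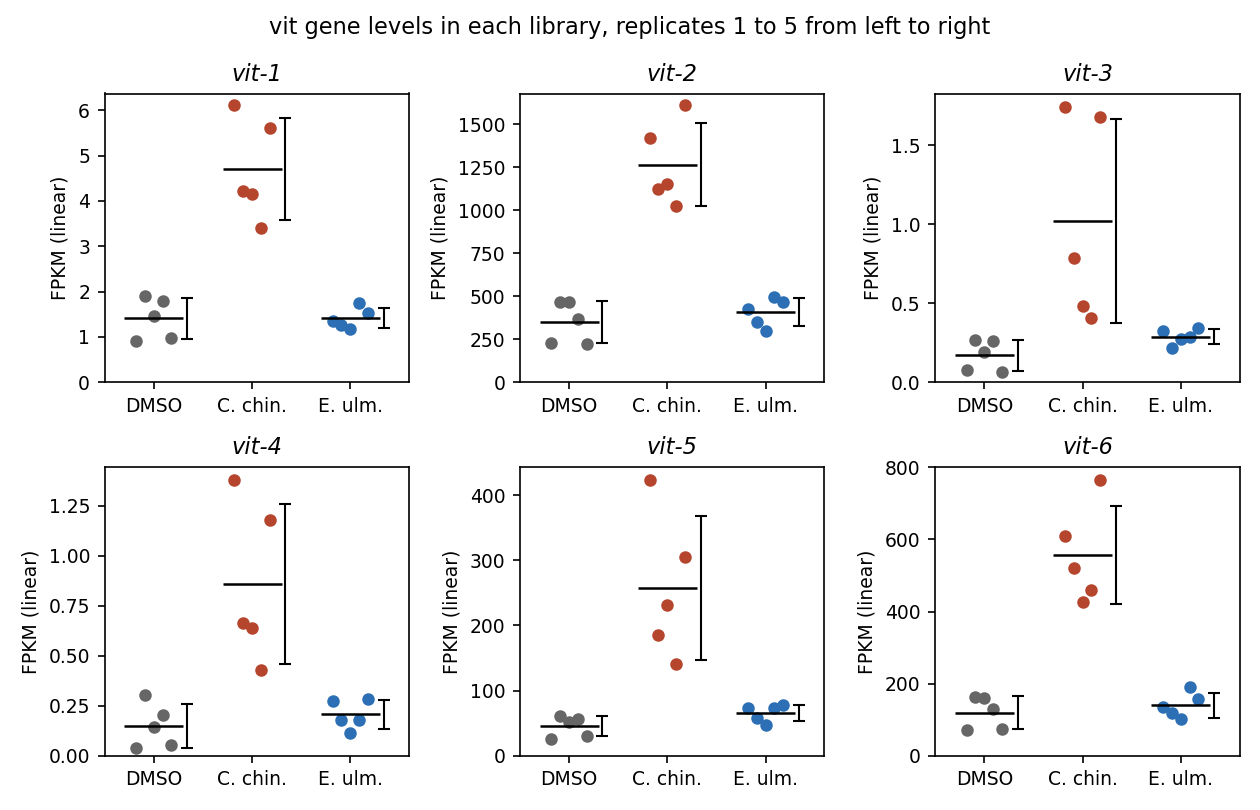
FPKM (linear axis from 0, a separate scale for each gene) of the 6 vit genes in 15 libraries by group, DMSO, C. chinensis (C. chin.) and E. ulmoides (E. ulm.), with points for replicates 1 to 5 from left to right, a line at the group mean and a bar of 1 SD on each side. The C. chinensis points of vit-2 sit between 1023 and 1608, above all DMSO points (223 to 468), and the E. ulmoides points overlap the DMSO points in every panel.

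The mean FPKM of vit-2 rose from 350.4 ± 122 (SD, n = 5) with DMSO to 1264 ± 242 (SD, n = 5) with C. chinensis, a ratio of 3.61. For vit-6 the means were 119.6 ± 44.6 and 557 ± 136 (SD, n = 5 each), a ratio of 4.65. For vit-5 they were 45.5 ± 15.9 and 257 ± 111 (SD, n = 5 each), the widest ratio among the 3 abundant genes at 5.66. The scarce genes moved by similar factors, vit-1 from 1.41 ± 0.452 to 4.70 ± 1.13, vit-3 from 0.171 ± 0.0977 to 1.02 ± 0.647 and vit-4 from 0.148 ± 0.109 to 0.857 ± 0.400 (SD, n = 5 each), which gave ratios of 3.34, 5.97 and 5.77.

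To test these differences against the spread between libraries, a linear model (limma) was fitted to log2(scaled FPKM + 0.5) of the 13743 genes that reached an FPKM of 1 in 5 or more libraries. Called genes had an adjusted p (Benjamini-Hochberg, over all genes tested) under 0.05 and differed more than 1.5-fold in either direction. Of the vit genes, 4 of 6 passed this filter, and vit-3 and vit-4, which reached an FPKM of 1 in 2 libraries each, did not. All 4 genes tested were called higher with C. chinensis than with DMSO, where 16.9% of all genes tested were called higher and 3.49% lower. The limma log2 fold change was 2.30 (SE 0.259, adjusted p = 1.7e-06) for vit-5, 2.11 (SE 0.225, adjusted p = 1.0e-06) for vit-6, 1.75 (SE 0.198, adjusted p = 1.8e-06) for vit-2 and 1.31 (SE 0.165, adjusted p = 4.7e-06) for vit-1. Over all genes tested the median was -0.09. By size of the log2 fold change, vit-5 ranked 36 among the 13743 genes, vit-6 61, vit-2 145 and vit-1 396. The 95% interval of vit-1, from 0.96 to 1.66, did not reach the lower bound of vit-5, which was 1.76, although the pseudocount holds the fold change of a gene as low as vit-1 down. With a pseudocount of 0.1 the log2 fold change of vit-1 was 1.54.

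For the members under the filter the mean log2 values were compared by exact permutation, two-sided, among 18 such tests over the 6 genes and 3 comparisons, with p-values that were not adjusted. The smallest p that 5 libraries against 5 allow is 0.0079. The log2 difference between C. chinensis and DMSO was 0.99 for vit-3 (exact permutation p = 0.0079) and 0.94 for vit-4 (exact permutation p = 0.0079), both at the smallest value possible. These differences depended on the pseudocount, and with 0.1 in place of 0.5 they were 1.79 for vit-3 and 1.82 for vit-4. In a limma fit without the filter both genes were called, with adjusted p-values of 0.0021 and 0.00049.

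**Figure D2:**
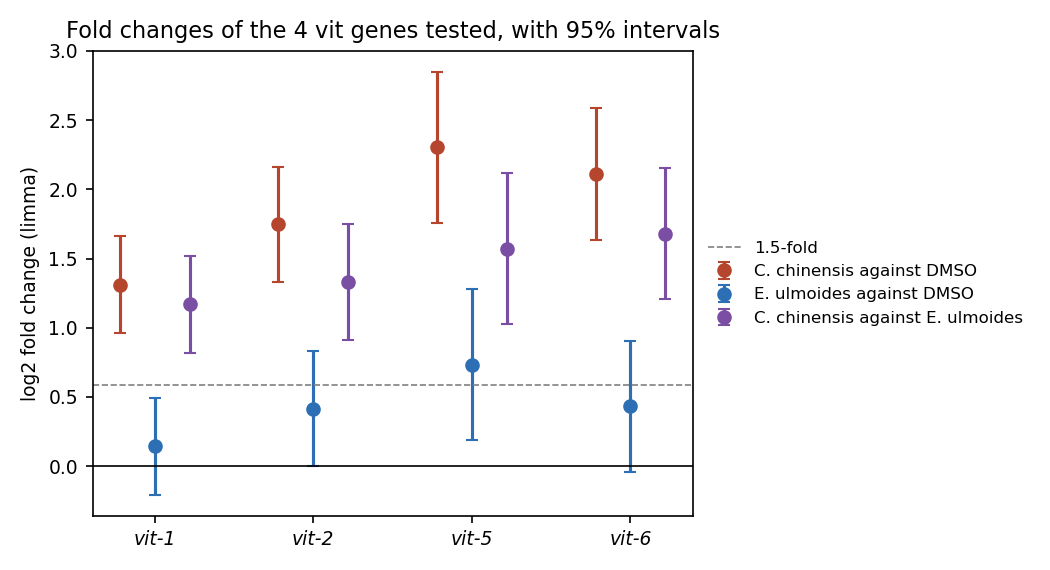
limma log2 fold change (vertical axis) of the 4 vit genes tested, with 95% intervals as bars, for C. chinensis against DMSO, E. ulmoides against DMSO and C. chinensis against E. ulmoides, and a dashed line at 1.5-fold. The intervals of both C. chinensis comparisons lie above the dashed line for all 4 genes, and those of E. ulmoides against DMSO reach 0 or below for vit-1, vit-2 and vit-6 but not for vit-5 (0.19 to 1.28).

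With E. ulmoides the yolk genes stayed within or near the control range, and none of the 6 had every E. ulmoides library above every DMSO library, where 0.675% of the 26686 genes above 0 did. The FPKM of vit-2 was 425, 351, 296, 495 and 468 in E. ulmoides replicates 1 to 5, with a mean of 407 ± 82.7 (SD, n = 5), and 1 of 5 libraries lay above all DMSO libraries. The FPKM of vit-6 was 136, 117, 102, 190.1 and 156, and that of vit-1 was 1.36, 1.25, 1.18, 1.74 and 1.54. None of the 4 genes tested was called against DMSO in either direction by limma, where 1.22% of all genes tested were called. At an unadjusted p under 0.05 there was 1 gene, vit-5. The log2 fold changes were 0.14 for vit-1 (95% interval -0.20 to 0.49), 0.42 for vit-2 (-0.00 to 0.83) and 0.43 for vit-6 (-0.04 to 0.91), so a rise of more than 1.5-fold stayed within the intervals of vit-2 and vit-6.

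Ratios of the E. ulmoides mean to the DMSO mean in FPKM as deposited were 1.69 for vit-3, 1.45 for vit-5 and 1.39 for vit-4. These are the A-form genes, and the ratio was at most 1.17 for the other vit genes. The scaling used in the tests raises E. ulmoides values against DMSO, and with it the log2 fold change was 0.42 for vit-2 and 0.43 for vit-6. For vit-5 the FPKM was 72.6, 57.3, 47.8, 72.8 and 78.3, with 3 of 5 libraries above all DMSO libraries, and the limma log2 fold change was 0.73 (SE 0.259, adjusted p = 0.102). Its exact permutation test gave an unadjusted p = 0.032. The value depended on single libraries, and the log2 fold change of vit-5 was 0.48 without DMSO replicate 1. Its highest value over the fits that left out single libraries was 0.84. For vit-3 the FPKM was 0.321, 0.216, 0.274, 0.288 and 0.341, with 4 of 5 libraries above all DMSO libraries, and the log2 difference was 0.30 (exact permutation p = 0.024, unadjusted). In the limma fit without the filter the adjusted p of vit-3 was 0.60. For vit-4 the FPKM was 0.275, 0.176, 0.115, 0.177 and 0.285, and the log2 difference of 0.18 did not pass (exact permutation p = 0.22).

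Since both extracts were compared with the same DMSO libraries, the direct comparison of the extracts tests whether their yolk gene levels differed. In FPKM as deposited, every C. chinensis library lay above every E. ulmoides library for all 6 genes, where 20.2% of the 26686 genes above 0 showed this. In limma 4 of 4 genes tested were called higher with C. chinensis than with E. ulmoides, where 13.2% of all genes tested were called higher. The log2 fold change was 1.68 for vit-6 (SE 0.225, adjusted p = 5.7e-06), 1.57 for vit-5 (SE 0.259, adjusted p = 4.4e-05), 1.33 for vit-2 (SE 0.198, adjusted p = 1.5e-05) and 1.17 for vit-1 (SE 0.165, adjusted p = 9.6e-06). After the scaling used in the tests the groups overlapped for vit-3, with 0.381 in the lowest C. chinensis and 0.391 in the highest E. ulmoides library. The differences were 0.69 for vit-3 (exact permutation p = 0.016) and 0.76 for vit-4 (exact permutation p = 0.0079). Ratios of the group means in FPKM as deposited lay between 3.11 for vit-2 and 4.16 for vit-4.

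The levels of the yolk genes were also set against each other. A ratio of 2 genes within a library does not depend on its depth or scaling, and 5 such ratios, chosen after the values had been seen, were compared by exact two-sided permutation tests in 15 tests whose p-values were not adjusted. The level of vit-6 was 31.8 to 35.3% of that of vit-2 in DMSO libraries and 37.1 to 47.7% in C. chinensis libraries, without overlap, so the ratio was 1.29 times as high (exact permutation p = 0.0079). In E. ulmoides libraries this ratio was 32.0 to 38.4%, close to that of DMSO (1.01 times, exact permutation p = 0.74). The level of vit-5 was 11.14 to 15.5% of that of vit-2 with DMSO, 13.8 to 29.9% with C. chinensis and 14.7 to 17.1% with E. ulmoides. Both extracts had a higher ratio of vit-5 to vit-2 than DMSO, 1.48 times for C. chinensis (exact permutation p = 0.024) and 1.25 times for E. ulmoides (exact permutation p = 0.016), and the groups overlapped in each case. The direct test of the extracts gave 1.18 times (exact permutation p = 0.25).

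Within one protein form the scarce genes kept a low ratio to the abundant one. The level of vit-1 was between 0.314 and 0.485% of that of vit-2 in all 15 libraries. Against vit-5, vit-3 was at 0.206 to 0.573% and vit-4 at 0.154 to 0.493%. None of the 9 tests of these 3 ratios between groups had a p under 0.05 (exact permutation p from 0.127 to 0.81). Whether the fragments of vit-1, vit-3 and vit-4 came from the abundant relative was not tested.

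**Figure D3:**
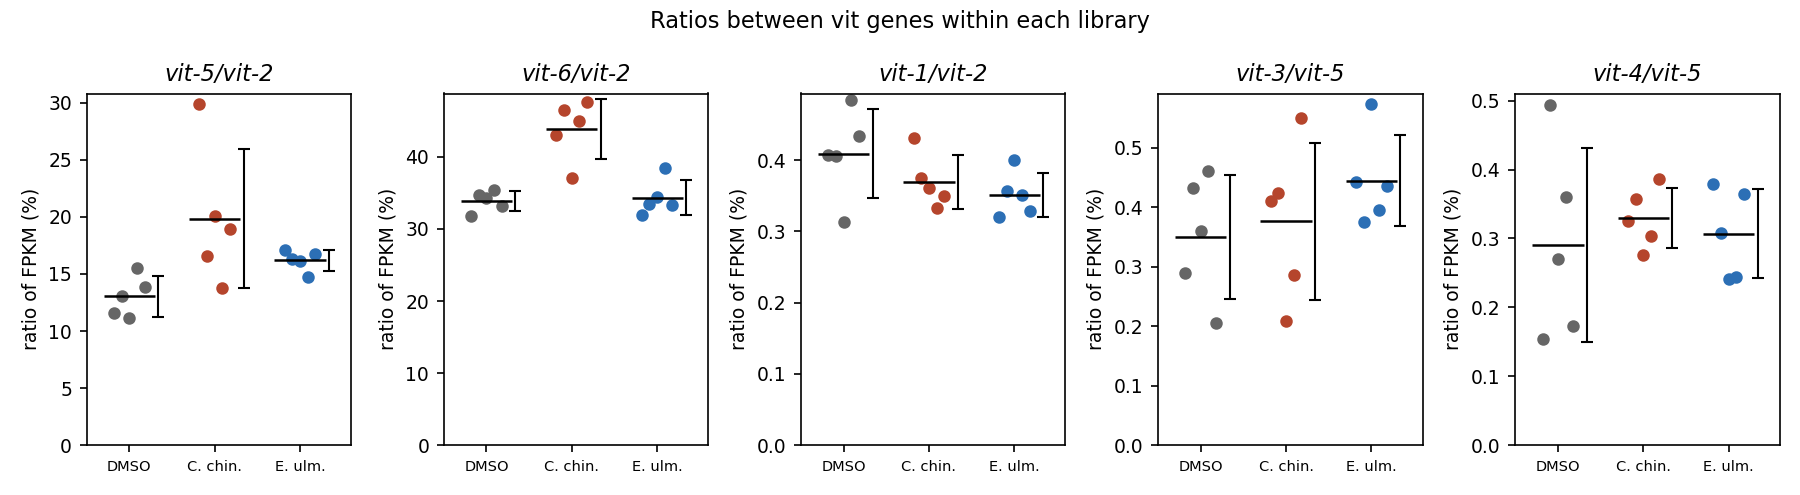
Ratios of FPKM between 2 vit genes within each library (percent, axes from 0), with points for replicates 1 to 5 from left to right by group, a line at the group mean and a bar of 1 SD on each side. The ratio of vit-6 to vit-2 lies at 37.1 to 47.7% in C. chinensis libraries, above the DMSO range of 31.8 to 35.3%, and the 3 ratios of a scarce gene to its abundant relative overlap between the groups.

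As a share of the library the 6 genes together were modest in control worms and larger with C. chinensis. Their summed FPKM ranged from 324 to 694 with DMSO, from 1629 to 2688 with C. chinensis and from 447 to 760.1 with E. ulmoides. This was 0.0578 ± 0.0208% of all FPKM with DMSO, 0.232 ± 0.0545% with C. chinensis and 0.0669 ± 0.0144% with E. ulmoides (SD, n = 5 each). Because the vit genes are long and FPKM gives short genes more weight, their share of the fragments was larger, between 0.148 and 0.317% with DMSO, between 0.734 and 1.21% with C. chinensis and between 0.204 and 0.346% with E. ulmoides. The C. chinensis libraries thus did not overlap the other groups in either measure. These sums got no test. Most of the sum was vit-2, at 66.0 to 69.5% of it with DMSO, 65.1 to 66.9% with E. ulmoides and 57.6 to 63.4% with C. chinensis, and vit-1, vit-3 and vit-4 together made up at most 0.404% in any library.

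**Figure D4:**
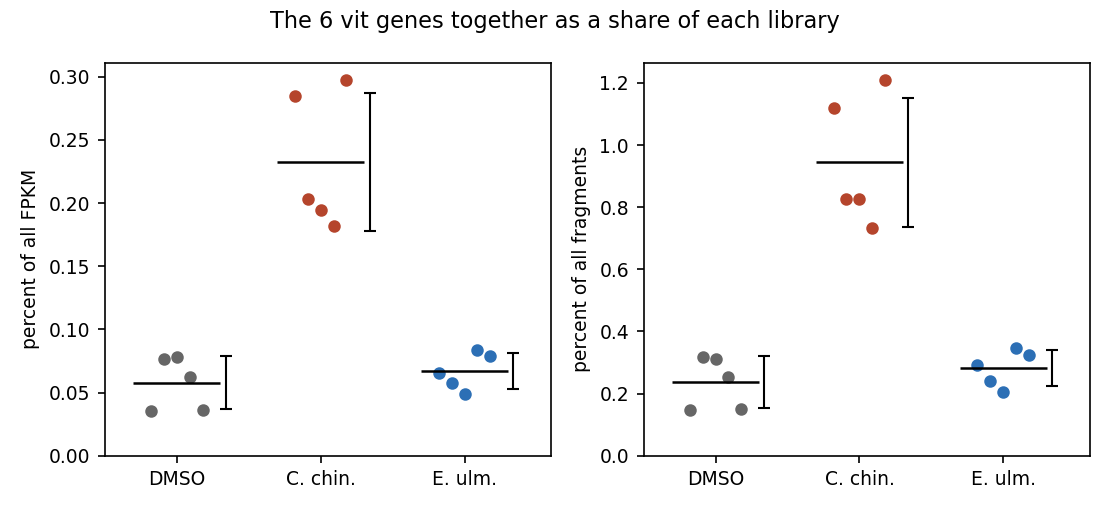
The 6 vit genes together as a percent of all FPKM (left) and of all fragments (right) in each library, axes from 0, with points for replicates 1 to 5 from left to right by group, a line at the group mean and a bar of 1 SD on each side. The C. chinensis libraries hold 0.734 to 1.21% of fragments in vit genes, against 0.148 to 0.317% with DMSO and 0.204 to 0.346% with E. ulmoides.

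The yolk genes varied more between libraries of one group than most genes did. The pooled SD within groups on the log2 scale was 0.49 for vit-5, 0.42 for vit-6, 0.37 for vit-2 and 0.27 for vit-1, against a median of 0.16 over all genes tested. The SD of vit-5 was higher than that of 96.8% of the genes tested and the SD of vit-1 higher than that of 84.7%. This spread was shared by the genes. DMSO replicates 1 and 5 were the lowest 2 DMSO libraries for 6 of 6 genes, C. chinensis replicates 1 and 5 the highest 2 of their group for 6 of 6, and E. ulmoides replicates 2 and 3 the lowest 2 of theirs for 6 of 6. The number of fragments did not set the libraries apart in one direction. DMSO replicate 2, with 82839505 fragments, was among the highest 2 of its group for 6 genes, and C. chinensis replicate 4, with 81833288 fragments, was among the lowest 2 of its group for 6 genes.

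The genes most like the yolk genes in this variation were found by the correlation of log2 values with the summed vit FPKM over 15 libraries, after group means had been subtracted. Since vit-2 makes up most of the sum, its own r of 0.996 is largely built in. Those of vit-6 at 0.978 and vit-5 at 0.871 are partly built in, as both genes are in the sum. For vit-1, a very small part of the sum, r was 0.901. Of the 13739 other genes tested, 35 had an r at least as high as that of vit-5. The highest r was that of lipl-5, a lysosomal lipase-like gene, at 0.965, followed by let-2, which encodes a chain of type IV collagen of basement membranes, at 0.956, ZC376.2 at 0.944, ndg-4, known from resistance to nordihydroguaiaretic acid, at 0.927, and emb-9, the other type IV collagen chain, also at 0.927. The points share library preparation and scaling, and the values are a description. Against DMSO these 5 genes had limma log2 fold changes of 1.25, 1.79, 1.42, 0.88 and 1.48 with C. chinensis. All were called, where 16.9% of all genes tested were called higher. None of them was called with E. ulmoides, where 1.22% of all genes tested were called. The mean FPKM of let-2 was 12.9 with DMSO, 51.0 with C. chinensis and 14.95 with E. ulmoides, and that of emb-9 was 12.0, 37.8 and 11.4.

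Of 13 genes listed as regulators of yolk gene transcription, 2 were called higher with C. chinensis than with DMSO and 0 lower, a count near the 16.9% of all genes tested that were called higher. The median log2 fold change was 0.28 against -0.09 over all genes tested. Without C. chinensis replicate 1 the count was 4, where 2374 of 13537 genes tested were called higher. It was also 4 without scaling between libraries, where 3126 of 13743 were. With a fold limit of 2 it was 0, where 834 of 13743 were. With no fold limit 7 were called higher and 4 lower, where 4145 and 5106 of 13743 genes tested were. The 2 genes called in the main fit were ceh-60 and sgk-1. The first, a homeodomain factor that promotes yolk gene expression in the intestine, was at 0.87 (SE 0.129, limma adjusted p = 2.1e-05). The kinase sgk-1, which acts with TOR complex signaling on yolk genes, was at 0.72 (SE 0.130, limma adjusted p = 0.00012). The mean FPKM of ceh-60 was 1.87 with DMSO, 4.27 with C. chinensis and 1.95 with E. ulmoides. Against E. ulmoides, 4 of 13 were called higher with C. chinensis, where 13.2% of all genes tested were called higher. They were elt-2 at 0.61, ceh-60 at 0.71, pqm-1 at 0.61 and sgk-1 at 0.74. The GATA factor elt-2, which drives most intestine genes, and pqm-1, a zinc finger factor, had 0.42 and 0.56 against DMSO, under the fold limit. Under 5 of 27 alternatives pqm-1 was called, among them no fold limit, no scaling (0.71) and quantile normalization (0.75). With E. ulmoides 0 of 13 were called against DMSO, where 1.22% of all genes tested were called. The median was -0.05, against 0.07 over all genes tested. The smallest p-values belonged to elt-2 at -0.18 (limma adjusted p = 0.20) and mab-3, a DM-domain factor that represses yolk genes in males, at 0.23 (limma adjusted p = 0.24).

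Among 11 genes of yolk assembly and uptake, 1 was called higher with C. chinensis than with DMSO and 0 lower, with a median of -0.01, where 16.9% of all genes tested were called higher. It was dsc-4, the microsomal triglyceride transfer protein that loads lipid onto vitellogenin, at 0.68 (SE 0.0904, limma adjusted p = 7.5e-06), with a mean FPKM of 5.92 with DMSO, 10.9 with C. chinensis and 5.43 with E. ulmoides. The gene was also called against E. ulmoides, at 0.66 (limma adjusted p = 7.4e-06). The yolk receptor gene rme-2, named here for its role after its values had been seen, was not called, at -0.37 against DMSO and -0.41 against E. ulmoides. With E. ulmoides 0 of 11 were called against DMSO, where 1.22% of all genes tested were called. The smallest p-values were those of the endosomal GTPases rab-7, at 0.11 (limma adjusted p = 0.13), and rab-11.1, at 0.11 (limma adjusted p = 0.22). Over all genes tested the median of this comparison was 0.07.

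Yolk is made in the intestine, and of 15 intestine markers 4 were called higher with C. chinensis than with DMSO and 0 lower, with a median log2 fold change of 0.40, where 16.9% of all genes tested were called higher. These were asp-1, an aspartyl protease, at 1.78, ges-1, a gut esterase, at 1.18, vha-6, a V-ATPase subunit of the intestine, at 0.74, and pgp-3, a P-glycoprotein, at 0.70. With quantile normalization the calls of vha-6 (0.55) and pgp-3 (0.41) were lost. Against E. ulmoides 10 of 15 were called higher and 0 lower, where 13.2% of all genes tested were called higher. With quantile normalization 3 of the 15 were called higher, where 1293 of 13743 genes tested were. The summed FPKM of the 15 markers was 451 to 589 with C. chinensis, above 291 to 333 with DMSO and 297 to 323 with E. ulmoides. Much of this difference was asp-1, with a mean FPKM of 45.9 with DMSO and 173 with C. chinensis, and the sum of the other markers was 257 to 293 with DMSO and 317 to 383 with C. chinensis. The summed vit FPKM differed more than the marker sum, which a few abundant genes set. By log2 fold change asp-1 alone, at 1.78, was level with vit-2 at 1.75. The summed vit FPKM divided by that of the intestine markers was 1.02 to 2.27 with DMSO, 3.59 to 4.57 with C. chinensis and 1.504 to 2.50 with E. ulmoides. With asp-1 left out after its values had been seen, it was 1.12 to 2.70, 4.77 to 7.55 and 1.95 to 3.36. With E. ulmoides the median of the intestine markers against DMSO was -0.18, against 0.07 over all genes tested. Of these markers 1, asp-1, was called higher, at 1.05 (limma adjusted p = 0.017), where 1.22% of all genes tested were called. This call was lost under 11 of 27 alternatives, among them the fits without DMSO replicate 1, 4 or 5 and without E. ulmoides replicate 1, 2, 4 or 5 (limma adjusted p from 0.070 to 0.125).

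Of 21 germline and oocyte markers, 0 were called higher and 4 lower with C. chinensis than with DMSO, where 3.49% of all genes tested were called lower, with a median of -0.39, while their summed FPKM, which a few abundant genes set, was 7948 to 8979 against 6875 to 7378. These calls depended on the scaling, the fold limit and single libraries. Without scaling between libraries 0 markers were called lower and 1 higher, where 125 and 3126 of 13743 genes tested were. The 4 markers were then still lower, at -0.44 to -0.54 (limma adjusted p of at most 0.0024), but under the fold limit. Without C. chinensis replicate 3 or 5 only 1 or 2 were called lower, where 482 of 13522 and 372 of 13519 genes tested were. With no fold limit 19 were called lower and 2 higher, where 5106 and 4145 of 13743 genes tested were. With E. ulmoides 0 of 21 were called against DMSO, where 1.22% of all genes tested were called. Of the other tissues, 4 of 6 body wall muscle markers and 3 of 3 hypodermis markers that passed the filter were called higher with C. chinensis than with DMSO, against 16.9% of all genes tested, and 0 of 7 sperm and 0 of 6 neuron markers were called in either direction. The call of 1 hypodermis marker, sqt-3 (0.64), was lost without DMSO replicate 5 (0.56), with quantile normalization (0.35), with a pseudocount of 1 (0.53) and with scaling over all genes above 0 (0.58). Whether the share of these tissues changed, and what part that had in the vit gene levels, was not tested.

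**Figure D5:**
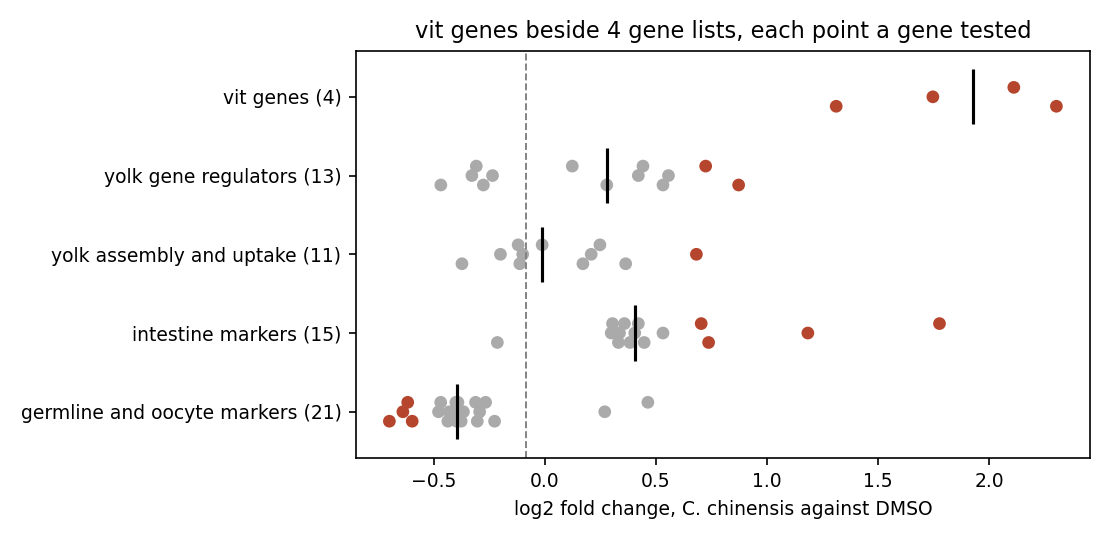
limma log2 fold change of C. chinensis against DMSO (horizontal axis) for the genes tested of 5 lists, with the number of genes in parentheses, called genes in red, other genes in grey, a black line at the list median and a dashed line at the median of all genes tested (-0.09). The 4 vit genes lie between 1.31 and 2.30, while the regulators have a median of 0.28 and the germline and oocyte markers one of -0.39.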

How the data were processed

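RNA of whole worms was measured by paired-end RNA-seq in 15 libraries, 5 per group, and groups were taken from the deposited labels. According to the submitters' processing notes the authors aligned reads with HISAT2 to WBcel235 and deposited FPKM, that is, fragments per gene divided by gene length and library total, in one table. The version of HISAT2, the counting tool and the handling of fragments that fit several genes are not given in the sources used here. The table holds no columns of other series. The FPKM of piRNA genes, 21 nucleotides long, rise in equal steps, each worth 1 fragment, and the step of a library gave its total. A single length for each gene then turned the values of the 26686 genes above 0 into whole fragments, within 0.0001.

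Libraries were scaled by TMM without weights over the genes kept (trimming 30% of the log ratios and 5% of the mean levels on either side), and log2(scaled FPKM + 0.5) was fitted by limma 3.58.1 (R 4.3.3, lmFit and eBayes with trend) over 15 libraries, with Benjamini-Hochberg adjustment over the 13743 genes kept. The deposited unit is FPKM, so limma on the log2 scale was the main test, and voom on the recovered fragments an alternative. Exact permutation tests used scipy 1.17.1, with pandas 2.3.3, numpy 2.4.6 and Python 3.11.15. The fit was tested on simulated data. Gene positions came from Ensembl release 115, and sequences were not used here. Errors are SDs over 5 libraries described as biological repeats, or limma SEs, whose variance comes from the one fit of all 15 libraries.

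The vit genes were always named, as were called members of the lists, the 2 members with the smallest p where a list had none called, and the 5 genes with the highest r. Apart from sqt-3, no germline, muscle or hypodermis marker is named, and the intestine markers called against E. ulmoides are given as a count. The members, lists and tests were chosen with earlier results of these data known. The alternatives were other scalings (none, median of ratios, quantile, over all genes, without the vit genes), pseudocounts of 0.1 and 1, other filters and fold limits, voom on recovered fragments, no trend, a replicate block, only the libraries compared, and each library left out. Added after seeing the data were the scaling over all genes, a fit without the 4 deepest libraries, the overlap of scaled values, the intestine sum without asp-1 and the alternatives for vit-3 and vit-4 other than leaving out libraries.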

Additional observations from a re-analysis of the deposited data

How the results depend on the processing

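The number of vit genes called was 4, 0 and 4 for C. chinensis against DMSO, E. ulmoides against DMSO and C. chinensis against E. ulmoides. The number was the same without each library in turn, and under every other alternative except the 2 that changed the genes tested: without a filter it was 6, 0 and 6, and with a mean FPKM of at least 5, which leaves vit-1 out, 3, 0 and 3. The log2 fold change against DMSO ranged over the alternatives from 2.11 to 2.59 for vit-5, 1.93 to 2.27 for vit-6, 1.59 to 1.91 for vit-2 and 1.02 to 1.57 for vit-1 with C. chinensis.

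With E. ulmoides the lowest limma adjusted p of vit-5 over the alternatives was 0.069. The value of vit-1 ranged from -0.0093 without DMSO replicate 1 to 0.19 when single libraries were left out, and was at most 0.25 over all alternatives. Without this replicate vit-2 was at 0.20 and vit-6 at 0.20, and without DMSO replicate 5 at 0.21 and 0.22. These fits also moved the median over all genes tested, from 0.067 to -0.0016 and 0.00088. The falls of vit-2 and vit-6 therefore hold a shift of all genes as well as the low yolk RNA of these 2 controls. Over all fits that left out single libraries, the highest value was 0.53 for vit-2 and 0.55 for vit-6. Without scaling rab-7 was at -0.0393 and rab-11.1 at -0.0401, and with quantile normalization rab-11.1 was at -0.0887. The calls of ceh-60, sgk-1 and dsc-4 with C. chinensis were lost with quantile normalization (0.58, 0.53 and 0.46) and with a fold limit of 2. The call of elt-2 for C. chinensis against E. ulmoides was lost without E. ulmoides replicate 3 (0.58), with quantile normalization (0.44), with a pseudocount of 1 (0.58) and with a fold limit of 2. The share of all FPKM was 0.0527 to 0.0633% with DMSO, 0.216 to 0.245% with C. chinensis and 0.0627 to 0.0714% with E. ulmoides without each replicate in turn, and as a share of fragments it was 0.236%, 0.944% and 0.281%, since FPKM divides by gene length.

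No pairing of the libraries by replicate number was seen in their correlations, which cannot exclude shared handling. Of 15 pairs of libraries with the same title number in different groups, 0 had a correlation of deviations over 0.1, and of 11 pairs with the same code number also 0. With a replicate block by either number, 4, 0 and 4 vit genes were called. The background moved more: with E. ulmoides 153 genes were called higher than with DMSO over the whole table, 73 with the block by title number, 1 with the block by code number and 20 without scaling, where 44.4% of calls were higher in place of 91.1%. For C. chinensis against DMSO 82.9% of calls were higher, 96.2% without scaling and 64.9% with quantile normalization, and for C. chinensis against E. ulmoides 57.9%, 97.9% and 64.1%. The depth limits vit-3 and vit-4, which had 9 to 122 fragments in DMSO libraries.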
